A study of Mus musculus with 6 samples.

Results

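The genes described here are those whose mouse symbol is Zfp followed by a number, most of which encode proteins with C2H2 zinc fingers. They were chosen by symbol and by level. Of 338 such symbols considered (2 more were left out by the rule), 264 had an FPKM above 1 in at least 1 of the 6 samples, and they made up 264 of the 12523 genes that passed this filter in the whole table of 23235 genes. FPKM counts the fragments of a transcript per kilobase of its length and in proportion to the mapped reads of the sample. The filter reads the same values as the comparison below, so it is described with no test. Of the 264 genes, 241 (91.3%) were above 1 FPKM in both genotypes, 17 were so in Pabpn1-null samples only and 6 in WT samples only. The last 23 genes had to differ to be chosen in this way, so their levels are given apart below, and they enter only the counts stated to be over all 264 genes or over all genes with or without KRAB. The genes just inside the filter were Zfp446, Zfp872 and Zfp619, with highest values of 1.01, 1.01 and 1.05 FPKM, and those just outside it were Zfp609, Zfp146 and Zfp459, with highest values of 0.989, 0.944 and 0.912 FPKM. Of the 74 symbols below the filter, 2 were listed at 0 in every sample.

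Growing oocytes of C57BL/6 mice (C57BL/6J in the study's methods) were sequenced in 3 Pabpn1-null samples and 3 WT samples, with 10 oocytes pooled per sample, and the RNA was reverse transcribed from oligo-dT primers, so that a transcript was caught through its poly(A) tail. The Pabpn1-null genotype was Pabpn1 fl/fl;Gdf9-Cre. Its Cre recombinase is made from the promoter of the oocyte gene Gdf9 and cuts out the floxed gene in oocytes only, so the rest of the ovary keeps Pabpn1. The age of the mice is not given in the labels. PABPN1 is the nuclear poly(A)-binding protein, and the comparison asked which transcripts differ when growing oocytes lack it. Pabpn1 itself was at 0.595, 0.878 and 1.37 FPKM in the Pabpn1-null samples, against 21.9, 33.4 and 21.8 FPKM in the WT samples, as the labels say. Total FPKM was 597103 to 638185 in Pabpn1-null samples and 676077 to 739244 in WT samples, and the counts behind the values are unknown. Summed markers of oocytes, a list of 12 genes, lay at 22210 to 23530 FPKM in Pabpn1-null samples and 17981 to 21071 FPKM in WT samples. The 10 granulosa cell markers together held 31.3 to 43.9 FPKM in Pabpn1-null and 31.8 to 38.1 FPKM in WT samples, and the 7 theca and stroma markers 1.15 to 1.50 FPKM in Pabpn1-null and 0.593 to 1.08 FPKM in WT samples. The 4 endothelial markers, with Cdh5 at 0, held 9.15 to 12.1 FPKM in Pabpn1-null and 7.95 to 9.78 FPKM in WT samples, and the 5 blood and immune markers, with both globin genes at 0, 1.08 to 2.65 FPKM in Pabpn1-null and 1.97 to 3.71 FPKM in WT samples. The part of these other cells in the results was not tested.

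A C2H2 zinc finger is a short fold in which a pair of cysteines and a pair of histidines hold a zinc ion, and a row of such fingers reads a stretch of DNA finger by finger. Many mouse Zfp genes also encode a KRAB domain at the start of the protein. KRAB recruits TRIM28, which brings the histone methyltransferase SETDB1 and heterochromatin protein 1 and so silences chromatin, above all at retrotransposons and at imprinted regions. KRAB zinc finger genes have multiplied by tandem duplication, lie in clusters and differ strongly between species. Other Zfp genes without KRAB have well-studied roles as transcription factors, RNA-binding proteins or ubiquitin ligases, so the shared symbol is not a shared function.

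Of the 264 genes, 258 (97.7%) matched a single gene of the GENCODE vM1 annotation of the same genome build, mm9, and 257 of these had a coding transcript. Reading the proteins encoded by these transcripts gave a check of the name. At least 1 C2H2 pattern was found in all but 10 of them, which were Zfp185, Zfp259, Zfp330, Zfp616, Zfp703, Zfp748, Zfp750, Zfp781, Zfp839 and Zfp957. A pattern of the KRAB domain was found in 139 genes and was not found in 118. Of the 264 symbols, 255 were current in RefSeq and 9 were older names, among them Zfp238 (Zbtb18), Zfp161 (Zbtb14), Zfp187 (Zscan26) and Zfp259 (Zpr1).

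Neighboring fingers are joined by a linker of conserved amino acids, threonine, glycine, glutamate, lysine and proline followed by an aromatic residue, and its coding sequence shows how alike these transcripts are. In 180 of the genes the coding sequence held this linker, in 990 copies with 318 different spellings of 18 bases. The most common spelling, actggagagaaaccctat, stood in 63 copies over 31 genes. The linkers below are from genes that results turn on, each with the first cysteine codon of the next finger in capitals, so that near-identical letters can be seen in transcripts that differed in opposite directions as deposited. The direction of Zfp932 turned over when samples were scaled by estimated factors.
Zfp473, higher in Pabpn1-null oocytes: actggggagaagccgtacgtcTGC
Zfp109, higher in Pabpn1-null oocytes: acaggagagaagccatataagTGT
Zfp709, higher in Pabpn1-null oocytes: actggtgaaaaaccctatgtaTGT
Zfp758, higher in Pabpn1-null oocytes: acaggagagaaaccttacaaaTGT
Zfp932, higher in Pabpn1-null oocytes: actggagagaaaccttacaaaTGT
Zfp938, lower in Pabpn1-null oocytes: actggtgagaaaccctatgaaTGC
Zfp445, lower in Pabpn1-null oocytes: acaggggagaaaccgtaccagTGT
Short reads from such stretches can fit several genes, and only uniquely mapped reads, trimmed to 50 bases, were counted. Of the 257 genes with a transcript, 160 had no 50-base stretch in common with a coding transcript of another gene and 21 shared at least 10% of theirs, up to 100% for Zfp781, 84.5% for Zfp960 and 82.1% for Zfp97. Sequences outside the annotated coding transcripts were not searched. The values of these 21 genes are uncertain. Whether reads were counted by strand is not given in the sources used here, which leaves genes that overlap another gene uncertain too.

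As a group, Zfp transcripts were more often higher than lower in Pabpn1-null oocytes in the deposited values. This was not so once the samples were scaled by estimated factors, with 48 higher and 49 lower. All genes tested then gave 9.39% higher and 35.5% lower. Of the 241 genes above 1 FPKM in both genotypes, 104 (43.2%) were higher and 15 (6.22%) lower in the limma test, called where the adjusted p was under 0.05, whereas among all 11141 genes of this class 27.1% were higher and 20.8% lower. Their median change was 0.45, on the scale of log2(FPKM + 1) used for all changes here, which understates changes of genes at low levels. The 264 genes gave 114 higher and 19 lower, beside 27.9% and 20.2% of all genes tested. Their median change was 0.46, against 0.09 over all genes tested. Among the 241 genes the genotypes did not overlap for 150 (62.2%), beside 57.4% of all 11141 genes of this class. Pabpn1-null samples were on top for 119 and WT samples for 31, beside 3593 and 2803 of the 11141. For 169 of all 264 genes (64.0%) the genotypes did not overlap, as was so for 58.0% of all genes tested. Pabpn1-null samples were on top for 134 and WT samples on top for 35 (33.3% and 24.7% of all genes tested). The counts over 264 include genes above 1 FPKM in a single genotype, whose separation follows in part from the filter. The 21 genes with shared stretches held 18 of the higher calls and 0 of the lower ones (limma; also 0 lower at an unadjusted p under 0.05), and 96 higher and 19 lower calls were left without them, a setting chosen after the data were seen. With the factors 7 of the 21 were higher and 1 lower. Without WT replicate 3 the lower calls numbered 31.

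The share of FPKM that went to Zfp genes was larger in the Pabpn1-null samples as deposited. Their summed level was 4702, 4607 and 4618 FPKM in Pabpn1-null samples, against 2975, 3241 and 3065 FPKM in WT samples, or 0.753%, 0.772% and 0.724% of total FPKM in Pabpn1-null and 0.402%, 0.479% and 0.425% in WT samples. The genotypes did not overlap as deposited. Multiplied by estimated factors that are described below, the sums were 3918, 3839 and 3849 in Pabpn1-null samples and 2975, 4591 and 4008 in WT samples, and the genotypes overlapped. As deposited, in the Pabpn1-null samples 101, 108 and 98 Zfp genes were above 10 FPKM, and in the WT samples 66, 74 and 62. From FPKM as deposited alone, more RNA per oocyte and a larger share of the measured RNA cannot be told apart.

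How many genes were called higher or lower depended on how the samples were scaled. Spike-in RNA had been added to each sample, and per-sample factors were estimated that lead from the deposited FPKM to the group means in the study's list of changed transcripts. Multiplied by them, total FPKM was 497566 to 531800 in Pabpn1-null samples and 739244 to 957799 in WT samples. The study, by its spike-ins, reports no significant difference between genotypes in the transcript level as a whole. With these factors 48 of the 264 genes were higher and 49 lower (9.39% and 35.5% of all genes tested by limma), with a median change of 0.02, against -0.36 over all genes tested. Of the 241 genes above 1 FPKM in both genotypes, 42 were higher and 45 lower with the factors, beside 7.88% and 36.9% of all genes of this class. The 48 were all among the 114, and all 19 lower genes stayed lower. Higher calls were thus 85.7% of the Zfp calls as deposited, 49.5% with the factors and 72.6% after quantile normalization, which gave 90 higher and 34 lower. Over all genes tested, 3491 were higher and 2535 lower as deposited, and 1176 higher and 4445 lower with the factors. Calls over all genes were not counted after quantile normalization, where the Zfp median was 0.30 against -0.01 over all genes tested. The distance of the Zfp median from the median of all genes was 0.37 as deposited and 0.38 with the factors, and a factor per sample moves all genes almost alike, so that this distance is nearly fixed by construction.

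**Figure D1:**
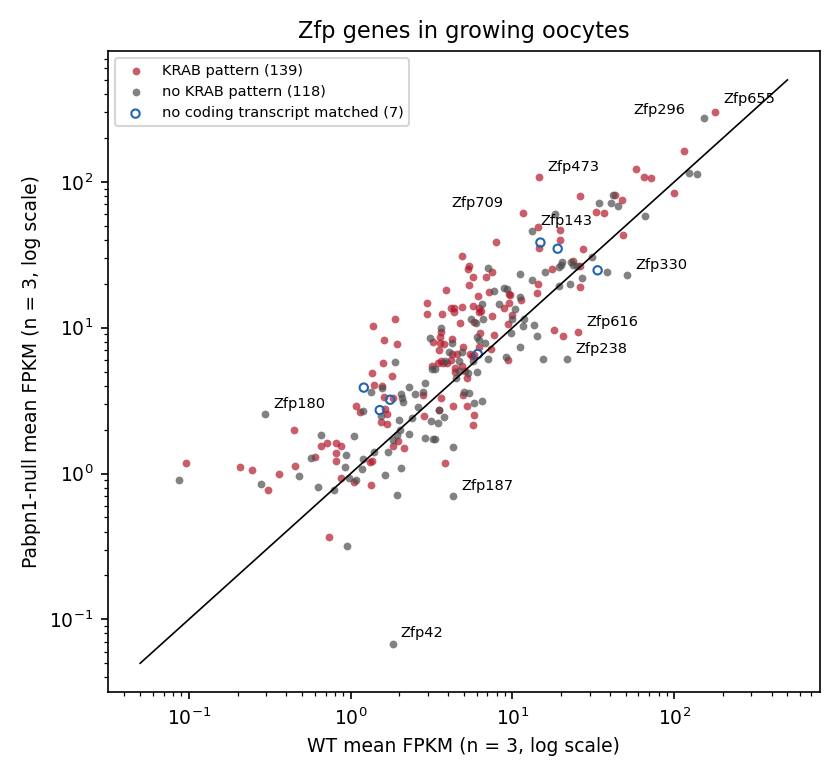
Mean FPKM of each of the 264 Zfp genes in Pabpn1-null oocytes (vertical, n = 3) against WT oocytes (horizontal, n = 3), both on log scales, with the diagonal marking equal levels. Genes with the KRAB pattern (139) are red, those without (118) grey and those with no coding transcript (7) open. More points lie above the diagonal than below it, with Zfp473 far above and Zfp238 and Zfp42 below.

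Higher calls were more frequent among the genes with KRAB than among those without. Of 128 KRAB genes above 1 FPKM in both genotypes, 73 (57.0%) were higher and 7 (5.47%) lower in Pabpn1-null oocytes by limma, with a median change of 0.60. Of 106 such genes without KRAB, 27 (25.5%) were higher and 8 (7.55%) lower, with a median change of 0.17, so that their share of higher genes was near the 27.1% of all genes of this class. With the factors 32 of the 128 were higher and 17 lower (median 0.15), and 8 of the 106 were higher and 27 lower (median -0.25). Over all 139 genes with and 118 genes without KRAB, 80 and 30 were higher and 7 and 12 lower as deposited, with medians of 0.59 and 0.17, and 36 and 10 were higher and 17 and 31 lower with the factors. Relative to the median of all genes, all KRAB genes stood at 0.50 as deposited and 0.54 with the factors, and genes without KRAB at 0.07 and 0.12. The split between both classes was not tested. The 21 genes with shared stretches were all KRAB genes, and without them 62 of 118 KRAB genes were higher.

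The summed level of each class was read by sample. KRAB genes summed to 2760, 2617 and 2741 FPKM in Pabpn1-null samples, against 1491, 1667 and 1526 FPKM in WT samples. Genes without KRAB summed to 1826, 1875 and 1765 FPKM in Pabpn1-null samples, against 1413, 1484 and 1464 FPKM in WT samples. In both classes every Pabpn1-null sample was above every WT sample as deposited. With the factors the sums of KRAB genes were 2300, 2180 and 2284 in Pabpn1-null samples, against 1491, 2362 and 1996 in WT samples. Those of genes without KRAB were 1522, 1563 and 1471 in Pabpn1-null samples, against 1413, 2103 and 1915 in WT samples. The genotypes thus overlapped in both classes once scaled. The median level of genes without KRAB overlapped even as deposited, with 5.396, 5.36 and 4.89 FPKM in Pabpn1-null samples, against 4.66, 5.37 and 3.502 FPKM in WT samples.

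**Figure D2:**
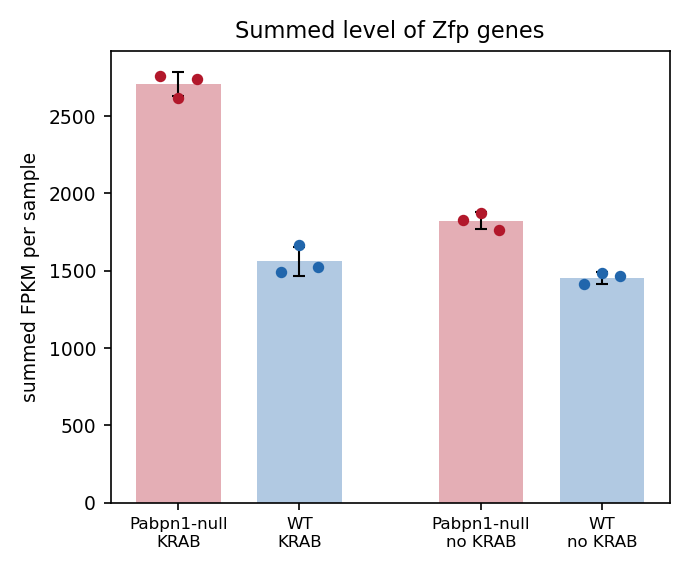
Summed FPKM per sample as deposited (vertical axis) of Zfp genes with and without the KRAB pattern in Pabpn1-null and WT oocytes. Bars are means of 3 samples, error bars are SD and points are samples. The Pabpn1-null samples lie at 2617 to 2760 FPKM for KRAB genes, against 1491 to 1667 FPKM in WT.

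Genes outside the list that also encode KRAB and C2H2 fingers gave shares near those over all 139 KRAB genes. The counts of this paragraph also take in genes above 1 FPKM in a single genotype. Among all genes tested, 27.9% were higher and 20.2% lower as deposited, and 9.39% and 35.5% with the factors. Of 42 such KRAB genes with other symbols, 23 (54.8%) were higher and 1 (2.38%) was lower (limma), with a median change of 0.55. With the factors 9 were higher and 4 lower. The lower gene was Zfp955b, with a change of -0.78. The largest rise among them was that of Gm13152, on chromosome 4, with 195, 161 and 186 FPKM in Pabpn1-null samples, against 15.8, 18.8 and 18.4 FPKM in WT samples (log2 change 3.28, adjusted p = 1.25e-06 from limma). AU041133 and Gm10324, also higher, had log2 changes of 2.55 and 1.92. Of 118 other genes with at least 3 C2H2 fingers and no KRAB pattern, 41 were higher and 16 lower, with a median of 0.23, and with the factors the balance turned over, with 15 higher and 29 lower and a median of -0.23. By symbol, 10 of 17 Zscan or Zkscan genes, which carry a SCAN domain, were higher and 0 lower (limma; 0 lower also where the unadjusted p was under 0.05), 12 of 28 Zbtb genes, which carry a BTB domain, were higher and 4 lower, and 6 of 12 symbols of Zfp with a number and a letter were higher and 1 lower. With the factors these counts were 4 and 0 (2 lower where the unadjusted p was under 0.05), 2 and 6, and 1 and 2.

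**Figure D3:**
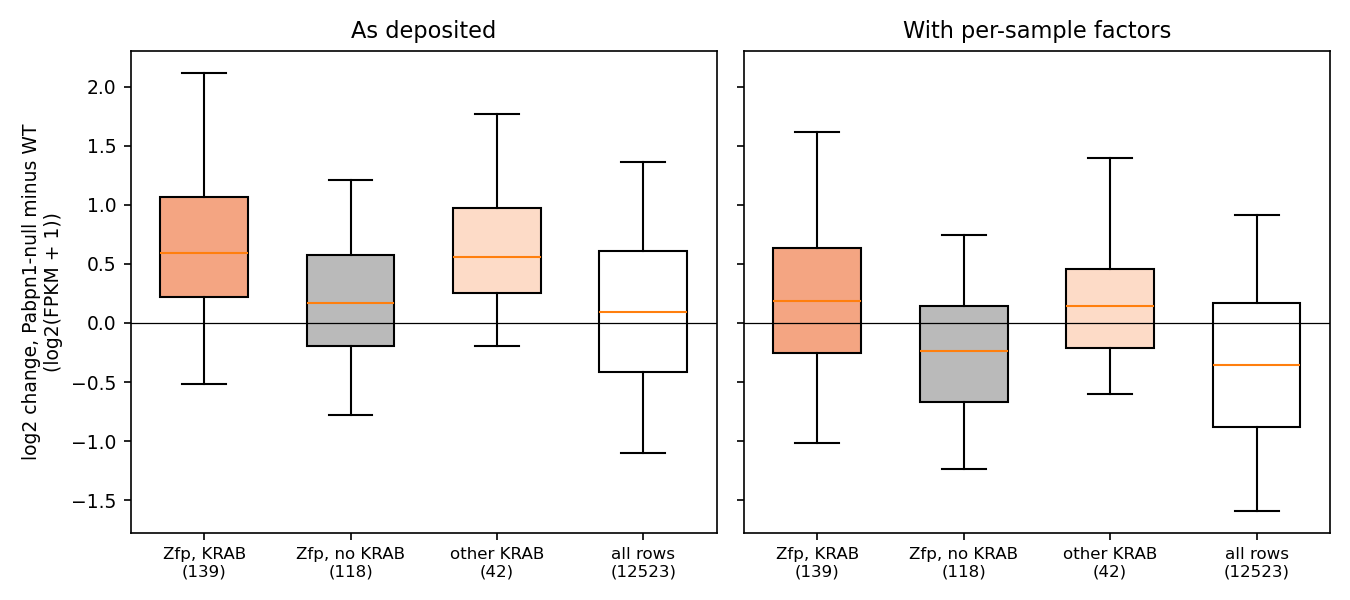
Log2 change of FPKM + 1 between Pabpn1-null and WT oocytes (vertical axis) for Zfp genes with KRAB (139), Zfp genes without KRAB (118), other KRAB zinc finger genes (42) and all 12523 genes tested, as deposited on the left and with the per-sample factors on the right. Boxes span the quartiles with the median as a line, and whiskers reach the 5th and 95th percentiles. The medians on the left are 0.59, 0.17, 0.55 and 0.09.

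The proteins and transcripts of both classes differ in other ways as well. KRAB genes had a median of 12 fingers and 6 linkers, a transcript length of 2757 bases and a GC content of 43.1%. Genes without KRAB had medians of 6 fingers, 0 linkers, 3348 bases and 50.6% GC, and other coding genes tested had medians of 2660 bases and 50.1% GC. The median 3′UTR was 741 bases in KRAB genes, 1034 bases in genes without KRAB and 778 bases in other coding genes. By finger number, among genes above 1 FPKM in both genotypes, 7 of 35 genes with 1 to 4 fingers were higher by limma. So were 27 of 71 with 5 to 9, 37 of 74 with 10 to 14 and 26 of 46 with 15 or more. In these bands 2, 4, 5 and 1 were lower, beside 27.1% higher and 20.8% lower of all genes of this class. With the factors 2, 9, 13 and 14 genes of these bands were higher and 12, 10, 13 and 5 lower, beside 7.88% and 36.9%. Of the 35 genes with 1 to 4 fingers, 34 had no KRAB pattern. Of 8 genes with 0 fingers by the pattern, 3 were higher and 3 lower as deposited, and 2 higher and 4 lower with the factors. Within KRAB genes the higher genes as deposited numbered 18 of 34 with 5 to 9 fingers, 33 of 59 with 10 to 14 and 21 of 32 with 15 or more, and within genes without KRAB 9 of 37, 4 of 15 and 5 of 14.

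The share of higher genes was set beside that of other genes of like level, length and GC content, again among genes above 1 FPKM in both genotypes. At a mean of 1 to 5 FPKM over the 6 samples 28.6% of Zfp genes were higher, beside 21.3% of other genes. At 5 to 20 FPKM the shares were 52.0% and 31.3%, and at 20 FPKM and above they were 56.2% and 27.6%. Among KRAB genes alone, 17 of 43, 38 of 59 and 18 of 24 were higher in these 3 bands as deposited. With the factors 5, 20 and 7 of them were higher, beside 5.88%, 10.1% and 7.15% of other genes. Lower with the factors were 10, 4 and 3 of these KRAB genes, beside 24.9%, 32.7% and 51.7% of other genes. By transcript length, 55.2% of KRAB genes under 2000 bases were higher, beside 16.97% of other genes of that length, 69.4% beside 36.3% from 2000 to 3000 bases, 65.2% beside 37.4% from 3000 to 4000 bases, and 29.6% beside 23.1% at 4000 bases and above. With the factors these shares were 24.1% beside 4.85%, 34.7% beside 9.46%, 21.7% beside 11.8% and 11.1% beside 5.54%. The shares lower with the factors were 6.90% of KRAB genes beside 55.9% of other genes, 12.2% beside 27.8%, 13.0% beside 23.7% and 22.2% beside 31.5%. By GC content the shares of KRAB genes higher as deposited were 56.9% under 42% GC, 66.7% from 42% to 46%, 50% from 46% to 50% and 50% at 50% and above, beside 23.6% to 29.3% of other genes. The share of higher genes among KRAB genes lay above that of other genes in every one of these bands. With the factors, however, lower KRAB genes outnumbered higher ones at 1 to 5 FPKM and at 4000 bases and above. The differences were not tested.

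Of the 85 genes that met the rule for naming (above 1 FPKM in both genotypes, a mean of at least 5 FPKM, an adjusted p under 0.05 and no overlap), 78 were higher and 7 lower. The rule was not applied to all genes, so no share stands beside these counts. By the call alone, 27.1% of all genes above 1 FPKM in both genotypes were higher and 20.8% lower. Of the 78 rises, 56 had KRAB and 20 did not, and 34 of the 78 were also higher with the factors. The 10 largest rises were all of KRAB genes. Zfp473, on the minus strand of chromosome 7 from 51986851 to 52006420 with 16 fingers, encodes the counterpart of a human protein of the U7 snRNP that processes the 3′ ends of histone mRNAs. Its level was 115, 103 and 105 FPKM in Pabpn1-null samples, against 15.1, 19.4 and 9.18 FPKM in WT samples. Every Pabpn1-null sample was thus far above every WT sample. The log2 change was 2.87 ± 0.23 (standard error; limma, adjusted p = 3.53e-05), and 2.33 with the factors.

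Zfp709 and Zfp617 lie close together on chromosome 8, at 74411163 to 74414811 and 74432534 to 74458528, both on the plus strand. Zfp709, with 18 fingers, was at 66.8, 54.8 and 61.5 FPKM in Pabpn1-null samples, against 11.97, 14.8 and 7.85 FPKM in WT samples (log2 change 2.34, adjusted p = 5.93e-05 from limma). Zfp617, with 14 fingers, was at 29.0, 22.9 and 27.9 FPKM in Pabpn1-null samples, against 6.02, 5.97 and 4.15 FPKM in WT samples (log2 change 2.12, adjusted p = 5.45e-05 from limma). The genotypes were well apart in both, where no overlap was a condition for naming. Zfp964 and Zfp869 lie at 72183162 to 72188069 and 72230231 to 72234623 of the same chromosome. Zfp964 was at 32.0, 29.1 and 31.7 FPKM in Pabpn1-null samples, against 4.08, 4.12 and 6.38 FPKM in WT samples, a log2 change of 2.47. Zfp869 averaged 18.01 ± 1.64 FPKM in Pabpn1-null oocytes and 3.89 ± 1.55 FPKM in WT oocytes (SD, n = 3 each), a log2 change of 2.0. Both rises passed the test (adjusted p = 3.16e-05 for Zfp964 and 2.00e-04 for Zfp869 from limma).

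On chromosome 7, Zfp109 was at 38.8, 40.8 and 36.3 FPKM in Pabpn1-null samples, against 8.11, 7.85 and 7.84 FPKM in WT samples. This gene had the smallest standard error of the 10, 0.15, on a log2 change of 2.15 (limma, adjusted p = 2.06e-05). Zfp819, a KRAB gene of germ and stem cells linked to repression of retroelements, was at 9.99, 10.0 and 10.9 FPKM in Pabpn1-null samples, against 1.08, 0.678 and 2.34 FPKM in WT samples, or 7.54-fold higher by the means (log2 change 2.32, adjusted p = 1.51e-04 from limma). Zfp772 averaged 25.4 ± 4.47 FPKM in Pabpn1-null and 5.28 ± 2.18 FPKM in WT oocytes, and Zfp940 averaged 14.8 ± 1.39 FPKM in Pabpn1-null and 2.97 ± 1.64 FPKM in WT oocytes (SD, n = 3 each), with log2 changes of 2.12 and 2.06. Zfp758, on chromosome 17 from 22498420 to 22514248, was at 13.6, 9.60 and 11.3 FPKM in Pabpn1-null samples, against 1.44, 2.40 and 1.79 FPKM in WT samples (log2 change 2.12). All 10 stayed higher with the factors, with log2 changes of 1.51 to 2.33, and none lost its call in any alternative that was run. None of the 10 shared as much as 10% of its 50-base stretches with coding transcripts of other genes.

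**Figure D4:**
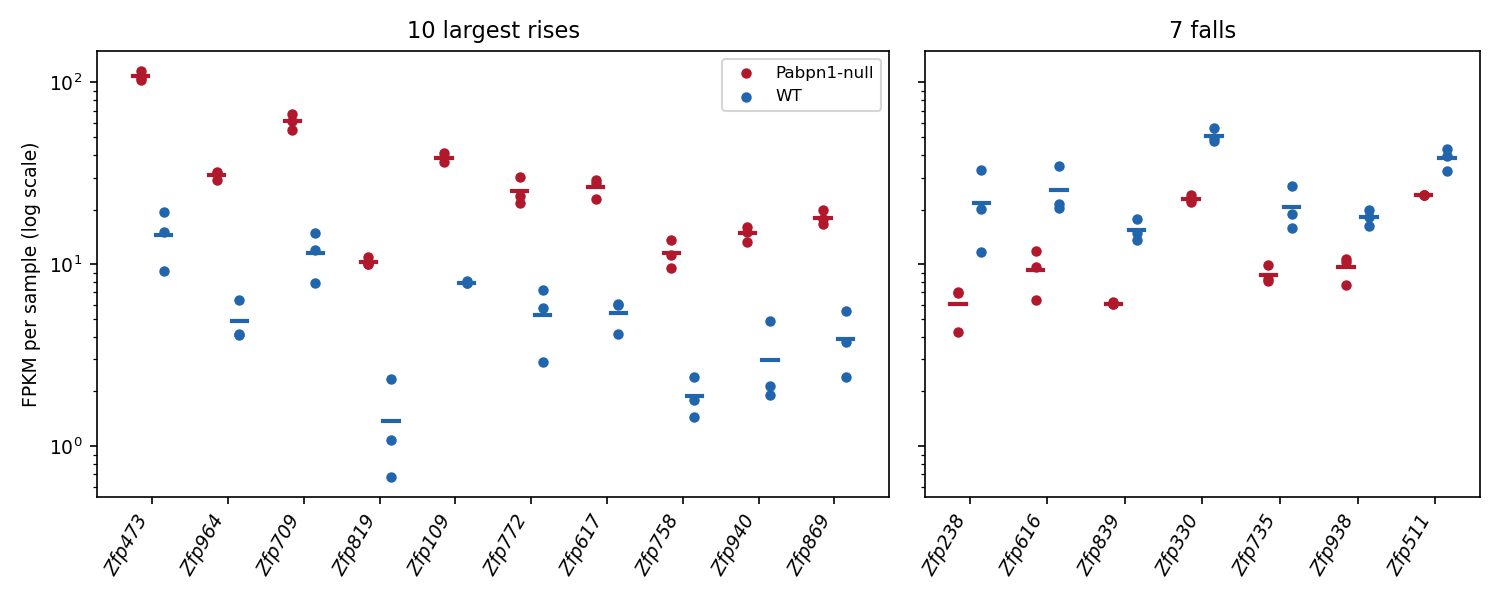
FPKM per sample (vertical axis, log scale) of the Zfp genes with the 10 largest rises and of the 7 falls, with Pabpn1-null samples in red on the left of each pair and WT samples in blue on the right, and bars at the means. Every Pabpn1-null sample of Zfp473 lies at 103 to 115 FPKM, against 9.18 to 19.4 FPKM in WT. The genotypes do not overlap in any of the 17 genes, which was a condition for naming them.

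Only 7 genes met the rule for naming with a fall, and 3 of them had KRAB. Zfp238, now Zbtb18, encodes a transcriptional repressor that acts in neuronal development and lies on chromosome 1 from 179374792 to 179380891. Its level was 7.04, 4.24 and 6.92 FPKM in Pabpn1-null samples, against 20.03, 33.0 and 11.7 FPKM in WT samples. It fell to 28.1% of its WT mean (log2 change -1.59 ± 0.33, standard error; limma, adjusted p = 0.00331). Zfp616 and Zfp735, both on chromosome 11 and with KRAB, were at 36.3% and 42.6% of their WT means, with log2 changes of -1.36 and -1.12. The third KRAB gene, Zfp938, was at 10.7, 7.73 and 10.3 FPKM in Pabpn1-null samples, against 18.3, 16.3 and 19.9 FPKM in WT samples (log2 change -0.86). Zfp330 was at 22.6, 23.9 and 21.9 FPKM in Pabpn1-null samples, against 49.2, 47.6 and 56.1 FPKM in WT samples (log2 change -1.12, adjusted p = 2.62e-04 from limma). Zfp839 averaged 6.07 ± 0.0821 FPKM in Pabpn1-null and 15.5 ± 2.19 FPKM in WT oocytes, and Zfp511 averaged 24.03 ± 0.135 FPKM in Pabpn1-null and 38.3 ± 5.45 FPKM in WT oocytes (SD, n = 3 each). Zfp616, Zfp839 and Zfp330 are among the 10 genes without a C2H2 pattern in the annotated coding sequence. With the factors all 7 stayed lower, with log2 changes of -2.09 to -1.18.

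The 5 Zfp genes with the highest levels had log2 changes of less than 1 in either direction. Zfp655, a KRAB gene with 6 fingers, had the highest mean, with 319, 276 and 313 FPKM in Pabpn1-null samples, against 157, 197 and 179 FPKM in WT samples (log2 change 0.77, adjusted p = 0.00134 from limma). Zfp296, known from pluripotent and germ cells, was at 286, 261 and 273 FPKM in Pabpn1-null samples, against 160, 119 and 180 FPKM in WT samples (log2 change 0.85, adjusted p = 0.00199 from limma). The genotypes did not overlap in either gene, but with the factors neither passed, with log2 changes of 0.21 and 0.30 (adjusted p = 0.438 and 0.208 from limma). Zfp932 was at 157, 161 and 168 FPKM in Pabpn1-null samples, against 112, 106 and 127 FPKM in WT samples (log2 change 0.50). It shared 55.4% of its 50-base stretches with other genes, and its change turned to -0.06 with the factors. Zfp207, or BuGZ, which binds microtubules and BUB3 at the kinetochore, and Zfp277 did not pass as deposited, with log2 changes of -0.10 and -0.28, and both were lower with the factors, with log2 changes of -0.66 and -0.84 (adjusted p = 0.019 and 0.0186 from limma).

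Genes with a known role were taken from a list of 35 symbols, of which 30 were measured and 27 were above 1 FPKM in both genotypes. Of the 27, 6 were higher, 5 lower and 16 did not pass as deposited, beside the background of 27.1% higher and 20.8% lower, and 7 of the 16 were lower with the factors. Zfp143, an activator of snRNA and many mRNA promoters, was at 47.8, 46.2 and 43.6 FPKM in Pabpn1-null samples, against 12.9, 16.5 and 10.2 FPKM in WT samples. It had the largest rise of the role genes without KRAB (log2 change 1.74, adjusted p = 1.26e-04 from limma), also with the factors (1.21). Zfp809, a KRAB protein that silences murine leukemia viruses, was at 8.96, 7.22 and 7.37 FPKM in Pabpn1-null samples, against 5.30, 3.23 and 2.23 FPKM in WT samples (log2 change 1.00, adjusted p = 0.00903 from limma). Its call was lost with the factors (adjusted p = 0.102 from limma) and without Pabpn1-null replicate 1 (0.0509). Zfp346, a protein that binds double-stranded RNA, had a log2 change of 0.57 (limma, adjusted p = 0.0349), and the call was lost without Pabpn1-null replicate 1 or 2 or WT replicate 1 or 3 (0.146, 0.093, 0.0762 and 0.0646), with no filter (0.0663), with median-of-ratios scaling (0.055), with quantile normalization (0.0828) and with the factors (0.705, and 0.12 on the log2 scale).

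Both KRAB genes of the list with roles at imprinted genes were lower. Zfp445, which helps to maintain genomic imprints, was at 2.57, 1.66 and 2.197 FPKM in Pabpn1-null samples, against 5.64, 7.93 and 3.66 FPKM in WT samples (log2 change -1.06, adjusted p = 0.0072 from limma). Zfp568, which silences a placental promoter of Igf2, was at 3.16, 2.63 and 2.90 FPKM in Pabpn1-null samples, against 4.83, 5.81 and 5.02 FPKM in WT samples (log2 change -0.67, adjusted p = 0.012 from limma). The genotypes did not overlap in either gene. Both calls were kept with the factors, with log2 changes of -1.49 and -1.12.

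Among genes without KRAB, Zfp91, a ubiquitin ligase of the NF-kappaB pathway, was at 3.13, 3.08 and 3.24 FPKM in Pabpn1-null samples, against 6.09, 9.35 and 3.92 FPKM in WT samples (log2 change -0.78, adjusted p = 0.032 from limma). Its call was lost without any 1 sample other than WT replicate 3, with adjusted p of 0.0748 to 0.0955, with no filter (0.0795) and at the same total FPKM (0.0919). Zfp423, a partner of early B cell factors, had a log2 change of -0.55 (limma, adjusted p = 0.0314), lost without Pabpn1-null replicate 1 or 3 or WT replicate 2 (0.0704, 0.113 and 0.0664) and at the same total FPKM (0.0843). Zfp598, the ubiquitin ligase that recognizes collided ribosomes, Zfp281, a factor of pluripotent cells, Zfp106, an RNA-binding protein, and Zfp318 did not pass, with log2 changes of -0.60, -0.34, -0.48 and -0.69. Without WT replicate 3 all 4 passed as lower (adjusted p = 0.0163, 0.0446, 0.0304 and 0.00974 from limma), as they did with the factors (0.0188, 0.0103, 0.00866 and 0.0119). Zfp598 also passed with the replicate block (0.0343), Zfp281 with quantile normalization (0.023), Zfp106 with quantile normalization, without trend and with median-of-ratios scaling (0.0122 to 0.0379), and Zfp318 with quantile normalization, robust estimation and median-of-ratios scaling (0.0175 to 0.0406). Zfp148, which binds GC boxes, Zfp217, a binder of corepressors, Zfp451, a SUMO ligase, Zfp516, Zfp622, a factor of 60S ribosomal subunit maturation, Zfp644, Zfp830, a spliceosome-associated protein, Zfp161, Zfp335, Zfp541 and Zfp706 did not pass as deposited either, with log2 changes of -0.19 to 0.45. Among the genes lower with the factors was Zfp830 (log2 change -0.72, adjusted p = 0.0268 from limma).

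The 23 genes above 1 FPKM in a single genotype are given as levels, since the filter itself made them differ. Zfp180, with 12 fingers, was at 2.33, 2.61 and 2.74 FPKM in Pabpn1-null samples, against 0.287, 0.314 and 0.282 FPKM in WT samples. Zfp712 was at 2.55, 1.22 and 2.22 FPKM in Pabpn1-null samples and 0.393, 0.641 and 0.312 FPKM in WT samples. Zfp768 and Zfp382 had highest values of 2.73 and 2.30 FPKM, both in Pabpn1-null samples. In the other direction, Zfp187, now Zscan26, was at 0.853, 0.932 and 0.322 FPKM in Pabpn1-null samples, against 5.03, 5.72 and 2.08 FPKM in WT samples. Zfp42, which encodes REX1, a marker of pluripotent cells, was at 0.0986, 0.0514 and 0.0545 FPKM in Pabpn1-null samples, against 1.28, 1.30 and 2.85 FPKM in WT samples. Zfp326, whose human counterpart links elongation to splicing, was at 0.512 to 0.849 FPKM in Pabpn1-null samples and 1.56 to 2.21 FPKM in WT samples. Zfp521, a relative of Zfp423, reached 0.366 FPKM in Pabpn1-null samples and 1.16 FPKM in WT samples. These 4 genes were chosen for being above 1 FPKM in WT samples only, so that their lower Pabpn1-null levels follow in part from the choice.

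Many Zfp genes lie in clusters, and from 0 of 5 to 5 of 6 genes of a cluster were higher as deposited. Runs of at least 5 measured Zfp genes with gaps of at most 500 kb gave 10 clusters with 86 genes, 63 of them with KRAB. Chromosome 7 held 65 of the Zfp genes and chromosome 17 held 32. Of the 86 genes, 78 were above 1 FPKM in both genotypes, and the counts of Zfp genes in clusters are over these. By limma, 39 of the 78 were higher and 3 lower, and of the 163 genes outside clusters 65 were higher and 12 lower, beside 27.1% and 20.8% of all genes of this class. With the factors 15 of the 78 were higher and 12 lower, and of the 163 genes 27 were higher and 33 lower, beside 7.88% and 36.9%. The cluster on chromosome 8 from 71750242 to 72315077 had 6 KRAB genes, of which 5 were higher, with a median change of 1.25, and with the factors 3 were higher and 1 lower. Its largest rises were those of Zfp964, Zfp869 and Zfp868, with log2 changes of 2.47, 2.0 and 1.498. Zfp866 did not pass, with a log2 change of -0.41, but was lower without WT replicate 3 (-0.61, adjusted p = 0.0236 from limma), with the factors (-0.85, 0.0226) and with quantile normalization (-0.56, 0.0405). In the cluster on chromosome 13 from 67139530 to 67927937, 5 of 6 KRAB genes were higher, among them Zfp87, Zfp748 and Zfp759 with log2 changes of 1.74, 1.37 and 1.09, and 2 of 6 with the factors, where Zfp759 did not pass (adjusted p = 0.0544 from limma).

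The large cluster on chromosome 17 from 21145905 to 22593656 had 14 KRAB genes, of which 8 were higher and 1 was lower as deposited, and 3 were higher and 3 lower with the factors. Zfp758, Zfp942 and Zfp51 were higher, with log2 changes of 2.12, 1.58 and 1.20, and Zfp820, in the same cluster, had a log2 change of -1.08. The other cluster on this chromosome, from 32956289 to 33768724, also consisted mostly of KRAB genes, 7 of 8, but Zfp414 alone was higher there, and its median was 0.11. With the factors 0 of its genes were higher by limma (also 0 at an unadjusted p under 0.05) and 3 were lower. The call of Zfp414 was lost without any 1 sample other than WT replicate 1 (adjusted p = 0.0631 to 0.156 from limma), with no filter (0.0843), with median-of-ratios scaling (0.0888), with quantile normalization (0.152), with the factors (0.801) and without trend (0.0517). On chromosome 7 the cluster from 24866943 to 26012526 had 7 of 10 genes higher, with Zfp109 and Zfp94 at log2 changes of 2.15 and 1.32, and 3 of 10 with the factors. The cluster from 30553571 to 30919684 had 7 of 11 higher, with Zfp940, Zfp27 and Zfp420 at 2.06, 1.57 and 1.10, and Zfp568 lower in their midst. With the factors 2 of the 11 were higher and 1 lower, and Zfp420 did not pass (adjusted p = 0.117 from limma). The cluster of 5 genes without KRAB from 4866819 to 5005324 had 0 higher and 0 lower calls (limma; 1 of each where the unadjusted p was under 0.05), and in that of 6 genes from 6083091 to 6347755 Zfp28 was higher and Zfp787 lower, with log2 changes of 1.17 and -0.64. The call of Zfp787 was lost without Pabpn1-null replicate 1 or 2 or WT replicate 1 or 2 (adjusted p = 0.0775 to 0.14 from limma), with no filter (0.0698), at the same total FPKM (0.0813) and with the replicate block (0.0584). Clusters with many higher genes held other genes as well. Within the cluster from 24866943 to 26012526, 7 of 15 genes that were not Zfp genes were higher and 3 lower, and in that from 134376575 to 135029510, where 3 of 6 Zfp genes were higher, 4 of 17 other genes were higher and 5 lower. Unlike the Zfp counts, these counts of other genes also take in genes above 1 FPKM in a single genotype. Of all genes tested, 27.9% were higher and 20.2% lower.

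**Figure D5:**
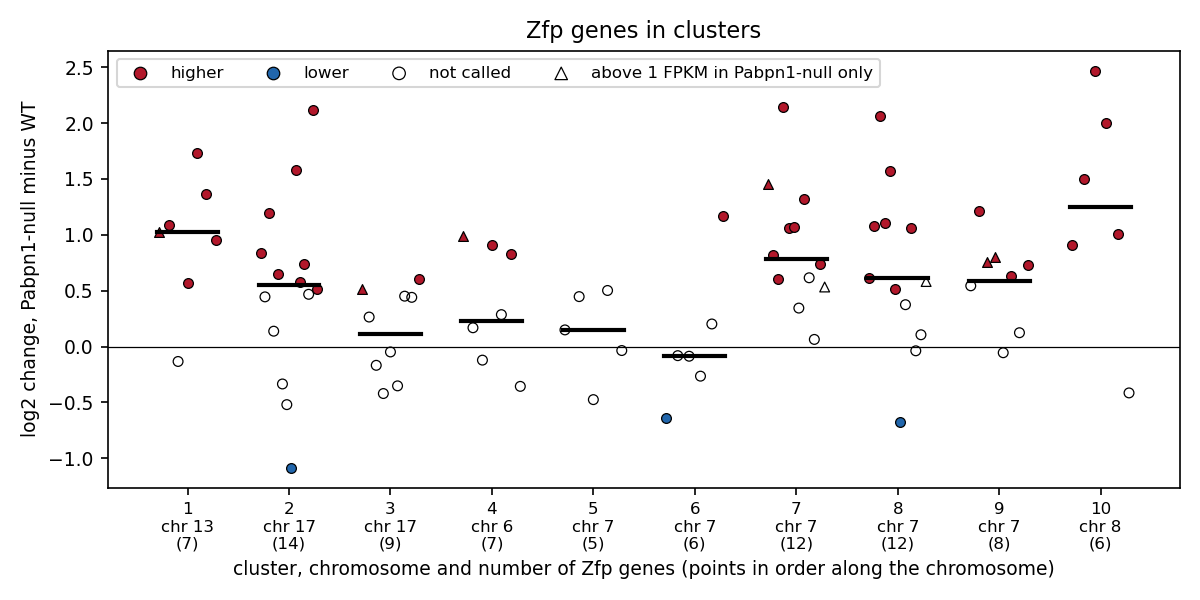
Log2 change of FPKM + 1 between Pabpn1-null and WT oocytes (vertical axis) of the 86 Zfp genes in 10 clusters, in order along each chromosome. Points are genes, filled red where higher and blue where lower by limma and open where not called. Triangles mark 8 genes above 1 FPKM in Pabpn1-null samples only, and bars are cluster medians over the 78 other genes. The medians run from -0.08 to 1.25, with 1.25 in the cluster on chromosome 8.

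The proteins that KRAB works through were described by a list of 22 genes, of which 21 passed the filter. Of these, 4 (19.0%) were higher and 6 (28.6%) lower as deposited (median change -0.16), beside 27.9% and 20.2% of all genes tested. With the factors 2 (9.52%) were higher and 11 (52.4%) lower, beside 9.39% and 35.5%, so that lower calls outnumbered higher ones there in the whole table as well. Trim28, the KRAB-binding corepressor, was at 26.2, 24.4 and 27.7 FPKM in Pabpn1-null samples, against 44.6, 46.4 and 27.8 FPKM in WT samples (log2 change -0.55, adjusted p = 0.0448 from limma). The highest Pabpn1-null sample lay just under WT replicate 3, the lowest WT sample, and the call was lost without any 1 of the other 5 samples (adjusted p = 0.081 to 0.148 from limma), with each sample scaled to a common total FPKM (0.178), with no filter (0.0822), without trend (0.0581) and with the replicate block (0.0537). Setdb1 did not pass, with 41.6 ± 8.20 FPKM in Pabpn1-null and 32.1 ± 8.10 FPKM in WT oocytes (SD, n = 3 each). Cbx1, a heterochromatin protein 1, was at 49.9% of its WT mean and Sumo2 at 49.7%, and Chd4, Pphln1 and Rbbp7 had log2 changes of -0.91, -0.83 and -0.65, of which that of Rbbp7 did not pass with quantile normalization (adjusted p = 0.0628 from limma). Atf7ip, the partner of SETDB1, rose to 31.1 ± 2.58 FPKM in Pabpn1-null oocytes, against 9.81 ± 1.29 FPKM in WT oocytes (SD, n = 3 each, log2 change 1.57, adjusted p = 1.18e-04 from limma). Morc3, Pias1 and Rbbp4 were higher too, with log2 changes of 1.66, 0.91 and 0.68, but Pias1 and Rbbp4 did not pass with the factors (0.36 and 0.14 on the log2 scale).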

How the data were processed

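Growing oocytes were measured by Smart-seq2 in 3 Pabpn1-null and 3 WT samples of 10 oocytes each. The methods call the replicates biological and the controls littermates, and do not say whether each sample came from a mouse of its own, so the p-values reflect how far these samples vary. The authors trimmed reads to 50 bases and aligned them to mm9 and to the spike-in sequences (TopHat2 2.1.1). Cufflinks 2.2.1, guided by UCSC gene models, turned uniquely mapped reads into FPKM. The deposited FPKM values had 1 added to each, which was taken off here. Counts are unknown, so no counting interval is given. The table holds no columns of the authors' own comparisons.

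A gene was tested if any sample exceeded 1 FPKM. The test was that of limma (version 3.58.1, R 4.3.3): linear fits of log2(FPKM + 1), that is with a pseudocount of 1, moderated by eBayes with a mean-variance trend, two-sided, adjusted by Benjamini-Hochberg over all 12523 genes, with a threshold of 0.05. The step was tested on simulated data. Per-sample factors (0.8333 for each Pabpn1-null sample; 1.0, 1.4167 and 1.3077 for WT replicates 1 to 3) were estimated by non-negative least squares from the rows held of the study's table of changed transcripts, and whether they are spike-in factors is not stated. Fingers (C-x(2,4)-C-x(12)-H-x(3,5)-H), linkers and KRAB, by a sequence pattern, were read from the longest coding transcripts of GENCODE vM1 on mm9, in place of RefSeq proteins, and KRAB from any isoform, so that a missing pattern does not show that a domain is missing.

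Genes were named by rule: among those above 1 FPKM in both genotypes, with a mean of at least 5 FPKM, a call and no overlap, the 10 largest rises and falls; genes with a listed role; the 5 highest; the 4 with the highest value in each class above 1 FPKM in a single genotype; 3 on each side of the filter; and up to 3 per cluster. Genes named outside it (other KRAB genes, cofactors and further members of clusters) were chosen after their values were seen. The members, lists and alternatives were chosen with earlier results of these data known. Alternatives covered the pseudocount (0.1), the filter (none, or a mean of 5 FPKM or more), the scaling (same total, median-of-ratios, quantile, factors), eBayes without trend or robust, the replicate block, and each sample left out.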

Additional observations from a re-analysis of the deposited data

How the results depend on the processing

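Against 114 higher and 19 lower Zfp genes with a median log2 change of 0.46, the count of higher genes moved by more than 1.5 times only with the factors, which gave 48 higher and 49 lower, a median of 0.0227, and 36 KRAB and 10 other genes higher. The count of lower genes also moved with a mean of at least 5 FPKM (9 of 146) and with quantile normalization (34). The median was 0.57 with a pseudocount of 0.1, 0.61 at a mean of at least 5 FPKM, 0.62 at the same total FPKM, 0.39 with median-of-ratios scaling and 0.30 with quantile normalization. Without 1 sample at a time, 88 to 108 genes were higher, 15 to 31 were lower (31 without WT replicate 3, 15 to 17 without each of the others), the median was 0.40 to 0.50, and 62 to 76 KRAB and 23 to 31 other genes were higher. The samples share only a number: same-numbered samples deviated from their group means with correlations of -0.0135, -0.0149 and 0.0598, and with the replicate block 113 genes were higher and 21 lower, with 76 KRAB and 33 other genes higher. Changes that did not pass as deposited turned over in direction at the same total FPKM for Zfp148 (0.0134), Zfp207 (0.10), Zfp830 (0.0031), Zfp451 (0.18), Zfp516 (0.0754), Zfp622 (0.10) and Zfp706 (0.0303), and with the factors for Zfp217 (-0.22), Zfp644 (-0.0771), Zfp161 (-0.17), Zfp541 (-0.16) and, called as deposited, Zfp932 (-0.0583). Without 1 sample at a time the log2 change was -0.27 to 0.0573 for Zfp148, -0.10 to 0.45 for Zfp217, -0.19 to 0.14 for Zfp451, -0.24 to 0.12 for Zfp516 and -0.21 to 0.12 for Zfp622. Where no value is given for it, the cause was not tested. Counts behind FPKM are unknown, so levels near 1 FPKM carry an unknown counting error.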
